A study of Mus musculus with 16 samples.

Results

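The mitochondrial ribosomal proteins are the nuclear-encoded proteins of the ribosome that works inside mitochondria, and their transcripts were followed in mouse hearts lacking carnitine palmitoyltransferase 2 (CPT2), with and without the deubiquitinase USP30. Members were all genes whose symbol begins with Mrpl (large subunit) or Mrps (small subunit) followed by a number. In the table of wild type and CPT2H-KO hearts, 77 of 14138 listed genes met the rule: 47 large subunit genes, 29 small subunit genes and the pseudogene Mrpl23-ps1. In the table of the single (CPT2) and double (CPT2 and USP30) knockout hearts, 78 of 17831 listed genes met it, 49 large and 29 small. Mrpl53 and Mrpl58 were analysed here in the second table only. Every member passed the filter on low counts in both tables.

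The mitochondrial ribosome is made of a large and a small subunit, each built on an RNA encoded in mitochondrial DNA (the 16S RNA from mt-Rnr2 and the 12S RNA from mt-Rnr1) and on proteins that are all encoded in the nucleus and imported. It translates the few proteins that mitochondrial DNA encodes, which are core subunits of the respiratory chain and ATP synthase, so it is needed in cells that depend on oxidative phosphorylation, such as cardiomyocytes. Some of its proteins have bacterial relatives and others are found in mitochondria only, and inherited faults in several of them, MRPL3, MRPL44, MRPS14 and MRPS22 among them, cause human disease that can include cardiomyopathy. Names do not always give the position: Mrps18a and Mrps30 encode proteins of the large subunit, and Mrps36 encodes a component of the oxoglutarate dehydrogenase complex of the citric acid cycle.

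RNA sequencing was carried out on 16 hearts. CPT2 is the enzyme of the inner mitochondrial membrane that readies long-chain fatty acids for oxidation, and USP30 removes ubiquitin from the mitochondrial surface and so counters mitophagy. The groups were 5 wild type hearts, 5 CPT2H-KO hearts with CPT2 deleted in cardiomyocytes only, 3 CPT2 single KO hearts, whose genotype label is also CPT2H-KO, and 3 CPT2/USP30 double KO hearts (genotype CPT2/USP30H-KO). Both groups of the second table therefore lack cardiomyocyte CPT2, and neither wild type hearts nor USP30 single knockouts stood beside them. USP30 deletion used Myh6-Cre with floxed USP30, which acts in cardiomyocytes and leaves the gene intact in the other cells of the heart; no source used here states the driver for CPT2 or the age and sex of the animals. Groups were compared within their own table only.

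Libraries of the first table held 54674422 to 132762776 counts and those of the second 11067969 to 13532716. A large part of the first totals was mitochondrial ribosomal RNA, which was not analysed in the second table. Those totals therefore overstate the depth for nuclear genes. Cpt2 was at 53.0 to 89.9 CPM (read counts scaled to library size with edgeR's TMM method) in wild type and 30.4 to 44.9 in CPT2H-KO (log2 fold change -0.95, SE 0.15, edgeR quasi-likelihood test, adjusted p = 9.71e-04). Usp30 was at 18.5, 22.8 and 21.7 CPM in single KO and 10.3, 10.4 and 7.45 in double KO (log2 fold change -1.16, SE 0.18), with an adjusted p of 0.147 by edgeR (0.0218 without double KO replicate 1) and 2.43e-04 by DESeq2. Cardiomyocyte markers were high in every heart (summed CPM of 8 genes, 52477 to 60408 in wild type, 48553 to 56671 in CPT2H-KO and 72268 to 103940 in the second table). Within them, 4 of 8 fell in CPT2H-KO (Tnni3, Actc1, Tnnt2 and Myl2, by 1.03, 0.58, 0.46 and 0.40 on the log2 scale) and Actn2 rose by 0.35, with a median of -0.363. Of 4 mural cell markers, Kcnj8 and Rgs5 fell, and the summed CPM were 393 to 447 in wild type and 341 to 386 in CPT2H-KO. Markers of atrial muscle (Myl7, Myl4, Sln and Bmp10) varied widely, with summed CPM of 57.1 to 574 in wild type and 45.6, 2.00, 1.30, 2.43 and 485 in CPT2H-KO replicates 1 to 5; in the second table they were 2.93 to 3.66 in single KO and 9.05, 384 and 1491 in double KO replicates 1 to 3. Fibroblast markers (6 genes) summed to 670 to 1051 CPM in wild type and 996 to 1769 in CPT2H-KO. Of these 6, 3 rose (50%, against 16.7% of all tested genes) and 0 fell, with a median log2 fold change of 0.549. Y-linked genes were near 0 in 1 of 5 wild type, 2 of 5 CPT2H-KO, 1 of 3 single KO and 3 of 3 double KO hearts. These are bulk heart samples, in which fewer cells of a type and less RNA per cell cannot be told apart.

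Promoter windows show the kind of sequence these genes start from. Windows of 300 bases, from 250 before to 50 after the transcription start, were taken from RefSeq (build GRCm38.p6, the mm10 assembly) and were found for 69 members. They were searched on both strands for 4 motifs of factors known to drive nuclear genes for mitochondrial proteins: the palindromic NRF1 motif, CCGGAAG (ETS factors such as GABPA), AAGATGGCG (YY1) and TCAAGGTCA (estrogen-related receptors). The ETS and YY1 motifs can overlap each other in the letters AAG. The 5 windows below belong to the members with the lowest fold changes of each subunit in CPT2H-KO (Mrpl42, Mrpl36 and Mrps21) and to 2 members that rose (Mrps18a and Mrps2). Each is written 5′ to 3′ along the gene, and capitals mark motif matches. YY1 is marked in Mrpl42 and, on the opposite strand, in Mrpl36. NRF1 and ETS are marked in Mrps21, both on the opposite strand. ETS and YY1 are marked in Mrps18a, and none in Mrps2.
Mrpl42 (chr10:95501900-95502199, minus strand): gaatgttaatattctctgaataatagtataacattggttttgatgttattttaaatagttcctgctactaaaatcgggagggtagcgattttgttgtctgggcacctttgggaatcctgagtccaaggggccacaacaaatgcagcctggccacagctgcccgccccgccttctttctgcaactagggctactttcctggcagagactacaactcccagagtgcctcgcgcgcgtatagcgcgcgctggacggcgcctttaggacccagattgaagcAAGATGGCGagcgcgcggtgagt
Mrpl36 (chr13:73330759-73331058, plus strand): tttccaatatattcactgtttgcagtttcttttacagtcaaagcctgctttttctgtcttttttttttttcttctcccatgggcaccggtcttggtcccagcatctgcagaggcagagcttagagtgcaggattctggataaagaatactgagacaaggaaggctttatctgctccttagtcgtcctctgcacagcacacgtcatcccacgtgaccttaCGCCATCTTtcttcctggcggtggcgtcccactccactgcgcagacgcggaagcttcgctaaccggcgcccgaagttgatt
Mrps21 (chr3:95871465-95871764, minus strand): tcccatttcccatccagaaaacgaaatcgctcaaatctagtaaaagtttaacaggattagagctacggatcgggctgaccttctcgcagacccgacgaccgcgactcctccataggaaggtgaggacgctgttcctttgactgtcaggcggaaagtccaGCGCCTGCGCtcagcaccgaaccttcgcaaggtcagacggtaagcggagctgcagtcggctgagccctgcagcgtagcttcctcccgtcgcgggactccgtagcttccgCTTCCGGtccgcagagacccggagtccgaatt
Mrps18a (chr17:46110754-46111053, plus strand): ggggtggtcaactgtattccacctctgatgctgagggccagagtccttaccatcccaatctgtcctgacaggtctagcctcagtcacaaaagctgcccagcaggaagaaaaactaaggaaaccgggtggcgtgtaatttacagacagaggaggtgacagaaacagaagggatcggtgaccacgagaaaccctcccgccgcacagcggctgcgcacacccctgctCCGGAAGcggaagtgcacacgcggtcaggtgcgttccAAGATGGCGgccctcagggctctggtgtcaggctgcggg
Mrps2 (chr2:28467816-28468115, plus strand): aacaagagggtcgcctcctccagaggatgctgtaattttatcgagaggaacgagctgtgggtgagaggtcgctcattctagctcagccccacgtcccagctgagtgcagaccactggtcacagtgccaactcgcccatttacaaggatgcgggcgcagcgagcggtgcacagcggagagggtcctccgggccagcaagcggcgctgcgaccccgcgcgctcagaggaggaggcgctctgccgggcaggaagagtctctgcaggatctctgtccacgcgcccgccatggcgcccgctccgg

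Among the 69 members, 26 (37.7%) held the ETS motif, 13 (18.8%) the NRF1 motif, 8 (11.6%) the YY1 motif and 0 the estrogen-related receptor motif. Over all 27025 genes with a window of the same length the shares were 9.93%, 5.19%, 1.64% and 0.466%, and over the 10007 of those tested in CPT2H-KO against wild type they were 19.3%, 11.2%, 3.52% and 0.32%. Of the 55 matches in member windows, 49 began within 100 bases of the start. The NRF1 motif was in 10 of 43 large subunit windows and 3 of 26 small subunit windows, while the ETS motif was in 15 and 11. By outcome in CPT2H-KO, the ETS motif was in 9 of 28 windows of members that fell, 2 of 5 of members that rose and 13 of 34 of the others; the NRF1 motif was in 3, 0 and 10, and the YY1 motif in 4, 2 and 2. A match describes the letters of a window and not a bound site.

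In wild type hearts the members spanned a wide range of levels. Per kilobase of transcript (CPM divided by the length of the longest principal transcript), Mrpl42 was highest at 116 ± 6.13 (SD, n = 5), followed among large subunit genes by Mrpl30 at 46.9 ± 2.85; Mrpl17 at 1.79 ± 0.0892 and Mrpl19 at 2.32 ± 0.181 were lowest. Among small subunit genes, Mrps21 (44.3 ± 1.96) and Mrps23 (32.4 ± 1.10) were highest, and Mrps25 (2.22 ± 0.141) and Mrps26 (2.51 ± 0.157) lowest. Mrpl30 and Mrps21 do not differ beyond their SDs, nor do Mrpl19 and Mrps25. These ranks depend on the transcript chosen for the length. Mrpl17 and Mrps25 were divided by 7300 and 6073 bases, Mrpl42 and Mrps21 by 666 and 488. Before that division Mrpl17 was at 13.1 CPM and Mrps25 at 13.5, above Mrps6 at 4.29.

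In CPT2H-KO hearts, more members were lower than higher, and the decreases were modest. Of 76 protein-coding members, 30 fell, 7 rose and 39 did not pass the test (edgeR quasi-likelihood test, Benjamini-Hochberg adjusted p under 0.05 over all genes tested). The fall took in 39.5% of members against 17% of all 14123 tested genes, and the rise 9.21% of members against 16.7% of all tested genes. The median log2 fold change of the members was -0.172 and that of all tested genes -0.00731. At an unadjusted p under 0.05 stood 43 members (56.6%), against 44.5% of all tested genes. The 2 groups did not overlap for 25 members that were lower and 6 that were higher, where 13.2% and 11.5% of all tested genes behaved so. The cardiomyocyte, mural and fibroblast marker differences given above move with this comparison too, and their part in it was not tested. A further fit took the atrial marker level as a covariate, here the mean log2 CPM of Myl7, Myl4 and Sln without Bmp10. It called 10 members lower (13.2%, against 10.6% of all genes) and 5 higher (6.58%, against 11.5%). The subunit medians were -0.173 for large and -0.178 for small. With library totals in place of TMM, the median of all genes moved to -0.27. That fit called 49 members lower (64.5%, against 34.2% of all genes) and 0 higher (against 5.86% of all genes). Each direction given here is therefore relative to the bulk of genes.

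**Figure D1:**
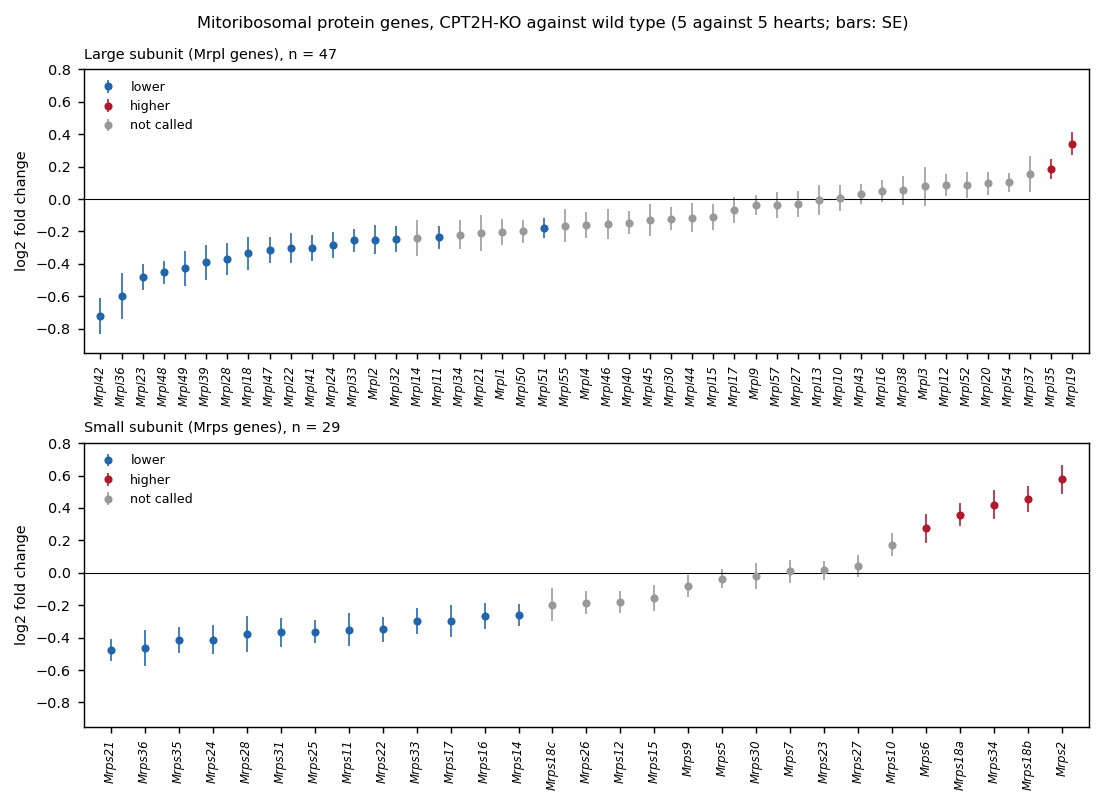
Log2 fold change (CPT2H-KO minus wild type, 5 hearts in each group) of the 47 large and 29 small subunit genes, ordered by value, with bars of 1 SE and colours for members that fell, rose or did not pass the edgeR test. The large subunit ranges from -0.72 (Mrpl42) to 0.34 (Mrpl19) and the small subunit from -0.48 (Mrps21) to 0.58 (Mrps2).

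Among large subunit genes, 17 of 47 fell, 2 rose and 28 did not pass, with a median log2 fold change of -0.163 and 35 members below 0. The fall took in 36.2% of them, against 17% of all tested genes, and the rise 4.26%, against 16.7%. The count that fell was 11 without wild type replicate 1, 11 without wild type replicate 2 and 10 without wild type replicate 3. In those fits 13.4%, 12.9% and 13.4% of all genes fell. Mrpl42, which encodes a mitochondria-specific protein and lies at chr10:95480805-95501940 on the minus strand, fell furthest. It was at 83.4, 77.4, 79.4, 73.0 and 74.7 CPM in the wild type hearts and 35.4, 49.2, 45.7, 49.1 and 56.0 CPM in the CPT2H-KO hearts, replicates 1 to 5. Every knockout heart was below every wild type heart, at a mean of 60.7% of the wild type level (log2 fold change -0.72, SE 0.11, adjusted p = 6.32e-04). Mrpl36 encodes the mitochondrial relative of a small zinc-binding bacterial protein, L36, and is at chr13:73328513-73332178. Its CPM were 10.9, 12.0, 12.3, 11.5 and 9.37 in wild type and 4.82, 7.94, 8.24, 8.00 and 8.03 in CPT2H-KO, with no overlap and replicate 1 of the knockout lowest (log2 fold change -0.60, SE 0.14, adjusted p = 0.00773). Mrpl23 went from 10.1 ± 1.02 to 7.22 ± 0.485 CPM (SD, n = 5 in each group), Mrpl48 from 17.3 ± 1.33 to 12.6 ± 0.890 and Mrpl49 from 13.6 ± 0.693 to 10.1 ± 1.58. These 3 fell with log2 fold changes of -0.48, -0.45 and -0.43, and in none did the groups overlap. The pseudogene Mrpl23-ps1 also fell (-0.54, SE 0.13, edgeR adjusted p = 0.00784), but at 1.61 and 1.11 CPM it may hold reads of the near-identical Mrpl23, so its value is uncertain.

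Only Mrpl19 and Mrpl35 rose among large subunit genes in this fit. Mrpl19 encodes the relative of bacterial L19, a protein at the interface of the subunits. Its levels were 11.8, 10.7, 12.0, 12.8 and 10.7 CPM in wild type and 13.7, 14.1, 15.9, 15.1 and 14.8 CPM in CPT2H-KO. The groups did not overlap (log2 fold change 0.34, SE 0.07, edgeR adjusted p = 0.00459). Mrpl19 shares 36% of its exon bases with Gcfc2 on the opposite strand, which was at 2.25 CPM in wild type and 2.06 in CPT2H-KO. Mrpl35 moved from 15.6 ± 0.616 to 17.7 ± 1.13 CPM (log2 fold change 0.19, SE 0.06, adjusted p = 0.0409), a call that held in 3 of 10 fits that left out 1 library each (wild type replicate 3, CPT2H-KO replicate 1 or 3) and whose value was -0.07 with library totals. Mrpl50, at -0.20 with an adjusted p of 0.0502, lay just outside the threshold, and Mrpl51, at -0.18 with 0.0407, just inside.

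Small subunit genes moved in both directions: 13 of 29 fell, 5 rose and 11 did not pass, with a median log2 fold change of -0.184 and 20 members below 0. The fall took in 44.8% of them, against 17% of all tested genes; the rise, at 17.2%, was near the 16.7% of all tested genes. Mrps21, the relative of bacterial S21, lies at chr3:95862634-95871519 and was the lowest. It was at 21.7, 21.3, 23.1, 21.5 and 20.5 CPM in wild type and 13.6, 15, 16.6, 16.5 and 16.1 CPM in CPT2H-KO. Its groups were well apart, with the knockout mean at 71.9% of wild type (log2 fold change -0.48, SE 0.07, adjusted p = 6.76e-04). Mrps35, another protein of the small subunit, was at 35.7, 33.0, 32.1, 29.8 and 27.6 CPM against 21.3, 24.4, 25.7, 24.1 and 23.1 CPM, again without overlap (-0.42, SE 0.08, adjusted p = 0.00289). Mrps24 and Mrps31 fell by 0.41 and 0.37 on the log2 scale and their groups did not overlap. Mrps28 fell by 0.38, with overlap between 11.1 CPM in the lowest wild type heart and 11.7 in the highest knockout heart. Mrps36, the oxoglutarate dehydrogenase component, fell by 0.47 (SE 0.11, adjusted p = 0.00902), from 15 ± 1.26 to 10.9 ± 1.71 CPM (SD, n = 5). Of these 4, each lost its call in the fit with the atrial marker level.

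The members that rose most were in the small subunit by name. Mrps2, the relative of bacterial S2, is at chr2:28468066-28471178 and was at 9.24, 9.18, 9.59, 8.54 and 9.63 CPM in wild type and 12.0, 13.2, 14.5, 16.6 and 12.6 CPM in CPT2H-KO. All knockout hearts were above all wild type hearts, at a mean of 149% of wild type (log2 fold change 0.58, SE 0.09, adjusted p = 9.22e-04). The Mrps18 family has 3 genes, and they took different courses. Mrps18b (small subunit) was at 5.44, 5.45, 6.02, 5.85 and 5.98 CPM in wild type and 8.77, 7.56, 7.51, 7.14 and 8.45 in CPT2H-KO (0.46, SE 0.08, adjusted p = 0.00138). Mrps18a, whose protein sits in the large subunit, was at 19.6, 19.9, 22.6, 21.7 and 21.2 CPM and then 30.7, 25.3, 26.2, 24.9 and 27.4 (0.36, SE 0.07, adjusted p = 0.00402). Both rose without overlap of the groups. Mrps18c (small subunit; chosen here after its values were seen) was at 5.85 ± 0.457 and 5.09 ± 0.697 CPM, a log2 fold change of -0.20 that did not pass (SE 0.10, adjusted p = 0.156). Mrps34, a mitochondria-specific protein of the small subunit, rose from 12.2 ± 1.19 to 16.4 ± 1.87 CPM (0.42, SE 0.09, adjusted p = 0.00622), without overlap. Mrps6, the relative of bacterial S6, went from 4.29 ± 0.418 to 5.19 ± 0.432 CPM (0.27, SE 0.09, adjusted p = 0.0390), with overlapping groups; its call held in 3 of 10 such fits (without wild type replicate 3, CPT2H-KO replicate 1 or 4). Mrps2, Mrps18a, Mrps18b, Mrps34 and Mrpl19 kept their calls in all 10 fits without 1 library and in the fit with the atrial marker level.

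Several of these genes share transcribed sequence with neighbours, and no source used here states whether the authors' counting used strand, which leaves their counts uncertain. Mrps34 shares 63.4% of its exon bases with Mapk8ip3 on the opposite strand (log2 fold change 0.24, SE 0.10, adjusted p = 0.0989) and 37.0% with Nme3 on its own strand. Mrps18b shares 30.5% with an antisense gene, and Mrps6 shares 10.4% with Slc5a3 on its own strand, which rose by 0.49 (SE 0.15, adjusted p = 0.0265). Of the 7 members that rose, 4 shared 10% or more of their exon bases with another gene; of the 30 that fell, 5 did, and of the 39 others, 7. Mrps2, Mrps18a and Mrpl35 were the 3 risers below that share. Among those that fell, Mrps25 (-0.36) shares 69.8% with Nr2c2 (-0.05), and Mrpl47 (-0.32; chosen after its values were seen) shares 13.9% with Ndufb5, which fell by 0.47.

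**Figure D2:**
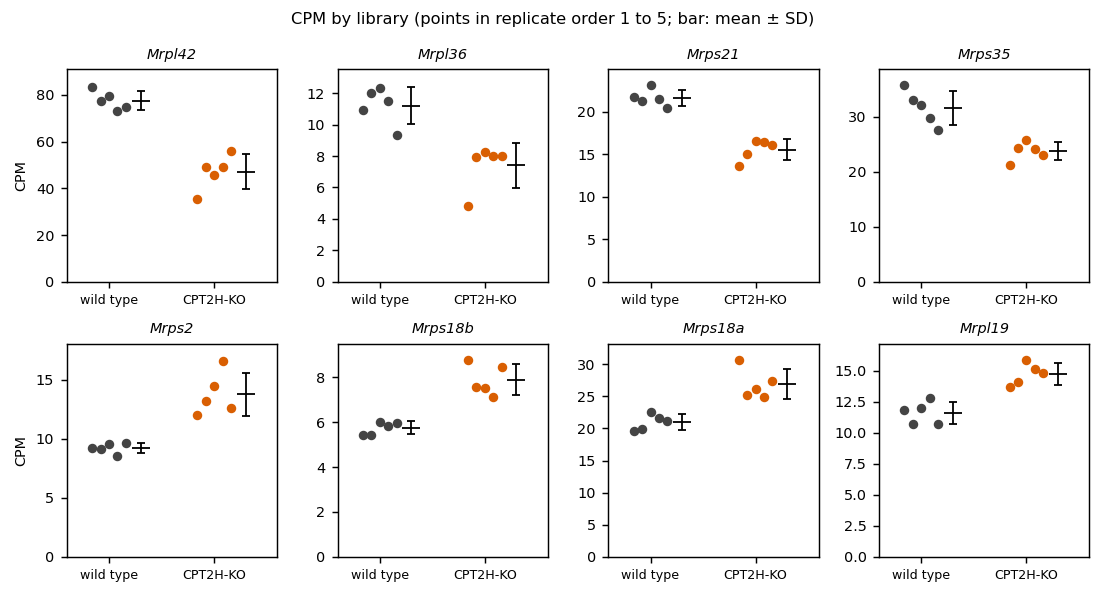
CPM per library of 4 members that fell (Mrpl42, Mrpl36, Mrps21 and Mrps35) and 4 that rose (Mrps2, Mrps18b, Mrps18a and Mrpl19) in 5 wild type and 5 CPT2H-KO hearts, with the mean and SD beside the points. In all 8 the groups are separate; Mrpl36 shows CPT2H-KO replicate 1 at 4.82 CPM, below the other 4 knockout hearts.

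The medians of the 2 subunits lay close together. The large subunit median was above the small subunit median by 0.022 on the log2 scale, and this difference ranged from -0.009 to 0.073 when single libraries were left out, being 0.073 without CPT2H-KO replicate 1. Genes were also placed by structure (Mrps18a and Mrps30 with the large subunit, Mrps36 left out). Then 17 of 49 large subunit genes fell (34.7%) and 3 rose (6.12%), with a median of -0.154. Of 26 small subunit genes 12 fell (46.2%) and 4 rose (15.4%), with a median of -0.19. Over all tested genes 17% fell and 16.7% rose. The difference between subunits was not tested, since the members were chosen with results known. Summed over members, large subunit transcripts were at 988, 959, 988, 925 and 885 CPM in wild type and 717, 871, 863, 859 and 902 CPM in CPT2H-KO. Small subunit transcripts were at 452, 446, 457, 432 and 407 CPM in wild type and 382, 403, 415, 403 and 421 CPM in CPT2H-KO. Both sums overlap between groups, with CPT2H-KO replicate 5 above wild type replicate 5 in each. The ratio of the large to the small sum was 2.14 to 2.19 in wild type and 2.08 to 2.16 in CPT2H-KO replicates 2 to 5, and 1.88 in replicate 1. That library also had the highest fibroblast marker sum (1769 CPM) and the highest mitochondrial ribosomal RNA sum (790110 CPM); their part in its value was not tested. Without that library, 28 members fell (36.8%, against 16.9% of all genes) and 7 rose (9.21%, against 15.6%).

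**Figure D3:**
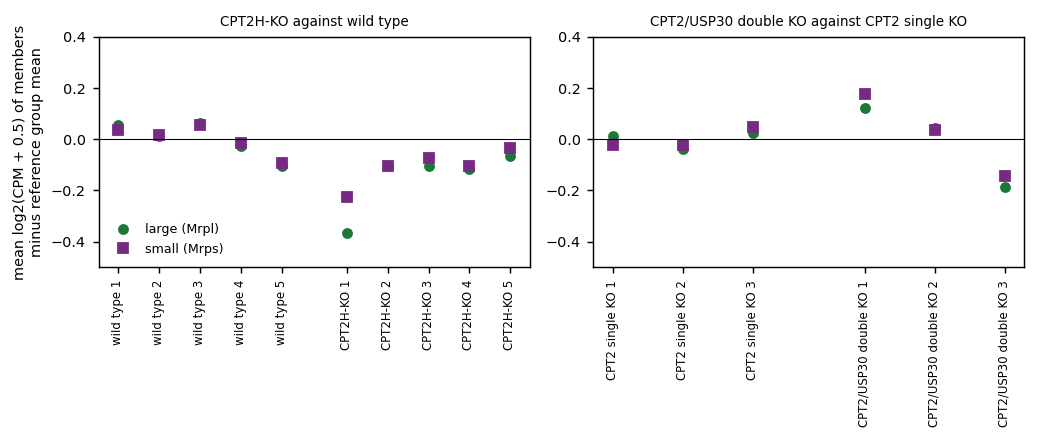
Mean log2(CPM + 0.5) over large and over small subunit genes in each library, as the difference from the mean of the reference group of its table (wild type at left, CPT2 single KO at right). At left the large and small points lie close together except in CPT2H-KO replicate 1; at right the double KO libraries spread on both sides of 0, replicate 1 highest and replicate 3 lowest.

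Small subunit genes with low numbers in their names, which are mostly those with bacterial relatives (Mrps2 to Mrps21, 16 genes), gave 5 that fell and 4 that rose, with a median of -0.12. The higher numbers (Mrps22 to Mrps36, 13 genes) gave 8 that fell and 1 that rose, with a median of -0.35. In the large subunit, 10 of 28 genes numbered up to Mrpl36 fell and 2 rose (median -0.183), and 7 of 19 higher-numbered genes fell and 0 rose (median -0.154). Over all tested genes 17% fell and 16.7% rose. In the small subunit, 31.2% of low-numbered genes fell and 25% rose, and 61.5% and 7.69% of higher-numbered genes. For the large subunit these shares were 35.7% and 7.14%, and 36.8% and 0%. These splits are descriptions, and the differences between them were not tested.

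Of the 4 members tied to human cardiomyopathy, 2 fell (50%, in a very small set, against 17% of all tested genes). Mrps22 went from 9.31, 9.27, 8.84, 9.45 and 8.51 CPM in wild type to 6.11, 7.27, 7.34, 6.97 and 7.88 CPM (log2 fold change -0.35, SE 0.08, adjusted p = 0.00546). Mrps14 went from 11.7 ± 0.497 to 9.76 ± 0.632 CPM (SD, n = 5; -0.26, SE 0.07, adjusted p = 0.0114), and in both genes the groups did not overlap. Mrpl44, which carries an RNase III-like fold, was at -0.12 (SE 0.09, adjusted p = 0.333), and Mrpl3 at 0.08 (SE 0.12, adjusted p = 0.628). Mrpl12, part of the flexible stalk that recruits translation factors, was at 0.09 (SE 0.07, adjusted p = 0.368), and Mrps30 at -0.02 (SE 0.08, adjusted p = 0.878). None of these last 4 passed the test.

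The mitoribosomal proteins that carry other names gave 3 of 5 that fell (60%, in a very small set, against 17% of all tested genes). Dap3, a GTP-binding protein of the small subunit, was at 32.4, 32.7, 34.3, 30.3 and 29.9 CPM in wild type and 22.8, 23.3, 26.9, 25.5 and 26.3 CPM in CPT2H-KO, without overlap (-0.36, SE 0.07, adjusted p = 0.00291). Chchd1 (-0.29, SE 0.09, adjusted p = 0.0231) and Aurkaip1 (-0.18, SE 0.06, adjusted p = 0.0378) fell with overlapping groups. The Chchd1 call held in 6 of 10 fits without 1 library and was lost without wild type replicate 1, 2 or 3 or CPT2H-KO replicate 4, and the Aurkaip1 call held in 2, without wild type or CPT2H-KO replicate 5. Gadd45gip1 (-0.21) and Ptcd3 (-0.14) did not pass, with adjusted p of 0.115 and 0.229.

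Factors that build and serve the mitoribosome were read from the same fit. Of 24 assembly factors 4 fell and 0 rose (median -0.112), a share of 16.7% near the 17% of all tested genes. Among them were the GTPase Mtg2 (-0.53, SE 0.13), the small subunit maturation factor Rbfa (-0.42, SE 0.07) and the 16S RNA factor Ngrn (-0.30, SE 0.08). Of 15 translation factors 2 fell and 2 rose (13.3% each way, below the 17% and 16.7% of all tested genes), with a median of -0.0909. Slirp, the partner of the mRNA stabiliser Lrpprc, fell by 0.30 and the release factor gene Mtrf1 fell by 0.40. Taco1, an activator of translation of the COX1 mRNA, rose by 0.34 and the recycling factor gene Gfm2 rose by 0.19. Whether these shares differ from those of the ribosomal proteins was not tested.

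The RNAs encoded in mitochondria moved the other way. The ribosomal RNAs rose, mt-Rnr1 by 0.42 (SE 0.12, adjusted p = 0.0226) and mt-Rnr2 by 0.43 (SE 0.15, adjusted p = 0.0470), with overlapping groups. Their sum ranged from 441528 to 557983 CPM in wild type and from 507548 to 790110 in CPT2H-KO. The libraries were made with ribosomal RNA removal. No source used here states whether it covers these RNAs, and how far it reached in each library was not tested. Neither call held with library totals or with replicate number as a block, and the mt-Rnr2 call held in only 3 of 10 fits without 1 library (wild type replicate 2 or 5, CPT2H-KO replicate 2). Of the 13 protein-coding mitochondrial genes 10 rose (76.9%, against 16.7% of all tested genes) and 0 fell (median 0.511). The smallest p were those of mt-Nd5 (0.97, SE 0.15), mt-Nd4 (0.82, SE 0.12) and mt-Nd4l (0.93, SE 0.16).

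Nuclear genes of complex I, the respiratory complex with the most mitochondrially encoded subunits, fell in 33 of 36 cases and rose in 0 (median -0.337). That fall took in 91.7% of them, against 17% of all tested genes. Ndufv1 (-0.55), Ndufb8 (-0.49) and Ndufc1 (-0.43) had the smallest p. Cytosolic ribosomal protein genes gave 8 of 79 that fell and 4 that rose (median -0.0691). These shares, 10.1% and 5.06%, were below the 17% and 16.7% of all tested genes. Rpl3 at 0.87, Rps2 at -0.43 and Rps27 at -0.38 had the smallest p. The members' median of -0.172 lay between those of the cytosolic set and complex I.

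**Figure D4:**
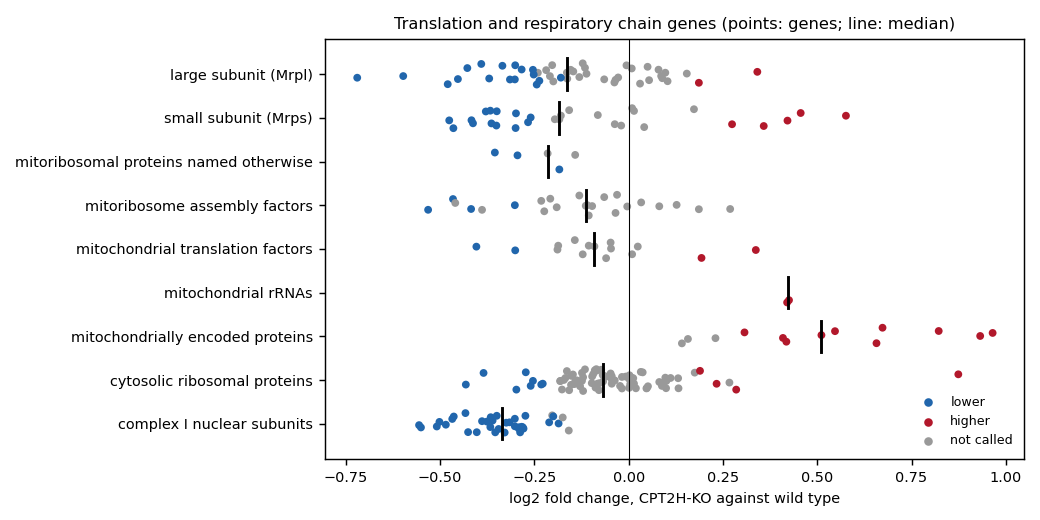
Log2 fold change in CPT2H-KO against wild type for each gene of the mitoribosomal, assembly, translation, mitochondrially encoded, cytosolic ribosomal and complex I lists, coloured by the edgeR call, with a line at each median. Mitochondrially encoded genes lie above 0 (median 0.511), complex I genes below 0 (median -0.337), and both subunits between (medians -0.163 and -0.184).

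In CPT2/USP30 double KO against CPT2 single KO hearts, 0 of 78 members passed the test. Summed Y-linked genes were at 0.581 to 0.911 CPM in the double KO hearts and at 0.733 to 124 in the single KO hearts. Sex and group therefore partly coincide in this comparison. Summed endothelial markers (6 genes) were at 1175 to 1323 CPM in single KO and 885 to 1086 in double KO. Red blood cell markers (6 genes) were at 8129 to 10042 and 4555 to 7763 CPM. Atrial sums, given above, were higher in double KO, and those of cardiomyocyte, fibroblast, mural and macrophage markers overlapped. The part of these differences was not tested. Of all 12997 genes tested, 0% were called by edgeR (without double KO replicate 1, 104 genes were called higher and 10 lower, still with 0 members; without single KO replicate 3, 4 were called lower); 942 genes (7.25%) had an unadjusted p under 0.05, and 1 of these was a member. DESeq2 called 113 genes and 0 members, and limma-voom 0 genes. The median log2 fold change was 0.00157 for the large and 0.0342 for the small subunit, against 0.00273 for all genes, and single members ranged from -0.31 to 0.30. The signs of both medians rest on single libraries: they were -0.060 and -0.032 without double KO replicate 1, and 0.114 and 0.135 without double KO replicate 3. On simulated counts for this comparison, 200 genes drawn from all tested genes were changed. Of those changed by 0.5 on the log2 scale 1.49% were recovered, and of those changed by 1, 56.7%. In that setting, changes of the size seen in CPT2H-KO were largely not detectable at this depth and number of hearts. The median SE in the data was 0.156 for members and 0.191 for all tested genes.

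The member with the smallest p was Mrpl19, at 51.6, 48.6 and 55.9 CPM in single KO and 38.8, 46.6 and 40.4 CPM in double KO. All double KO hearts were below all single KO hearts (log2 fold change -0.31, SE 0.14, adjusted p = 0.683 by edgeR; the p before adjustment is 0.0472). Mrpl37, a mitochondria-specific protein, was at 96.5, 92.6 and 96.1 CPM and then 81.1, 85.5 and 81.6 CPM (-0.20, SE 0.13, edgeR adjusted p = 0.803), and Mrps27 at 69.1, 70.5 and 72.1 CPM and then 65.9, 64.0 and 56.9 CPM (-0.18, SE 0.13, edgeR adjusted p = 0.843). Mrpl48 was at 45.5, 41.0 and 45.1 CPM and then 49.9, 53.4 and 47.1 CPM (0.19, SE 0.13, edgeR adjusted p = 0.825). These were the 4 members without overlap, 3 lower and 1 higher, where 5.07% and 6.69% of all tested genes had such separate groups. Mrps21 (0.28, SE 0.16) and Mrps6 (0.30, SE 0.18) had the smallest p among small subunit genes, and their groups overlapped. Mrpl42 was at 270, 233 and 287 CPM and then 329, 295 and 268 CPM, a log2 fold change of 0.18 with an interval of 2 SE from -0.13 to 0.48. Mrps2 was at 70.4, 70.1 and 77.7 CPM and then 59.5, 64.7 and 70.2 CPM, with an interval from -0.43 to 0.10.

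**Figure D5:**
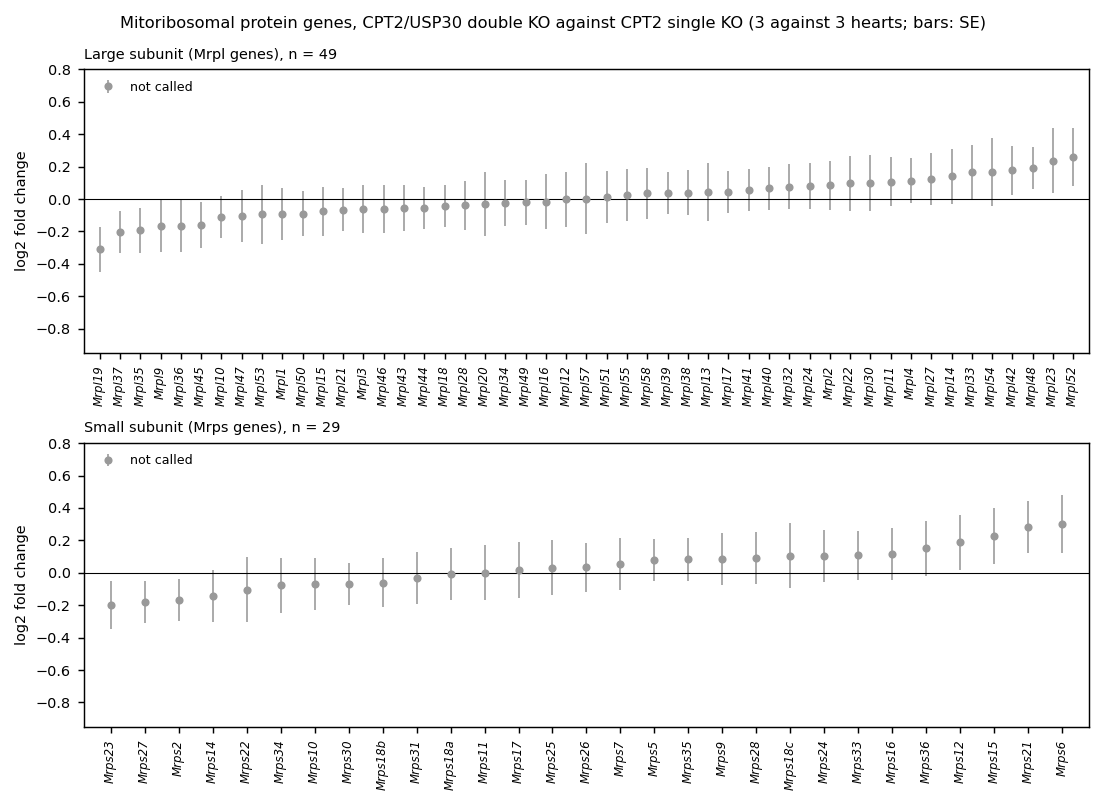
Log2 fold change (CPT2/USP30 double KO minus CPT2 single KO, 3 hearts in each group) of the 49 large and 29 small subunit genes, ordered by value, with bars of 1 SE. Values run from -0.31 (Mrpl19) to 0.30 (Mrps6), and none passed the edgeR test.

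As groups, the double KO hearts were spread around the single KO hearts. Summed large subunit transcripts were at 3673, 3570 and 3607 CPM in single KO and 3981, 3805 and 3204 CPM in double KO replicates 1 to 3. Small subunit transcripts were at 1650, 1670 and 1724 CPM and then 1908, 1733 and 1498 CPM. The double KO values lie on both sides of the single KO values, and their order is the reverse of the order of the atrial marker sums (9.05, 384 and 1491 CPM). With the atrial marker level as a covariate the medians were 0.187 for the large and 0.283 for the small subunit, and 0 members passed. Single KO hearts all had atrial sums of 2.93 to 3.66 CPM, so this covariate differed mainly among the double KO hearts. Its part and that of the group cannot be told apart here. The large to small ratio was 2.09 to 2.23 in single KO and 2.09 to 2.20 in double KO.

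The members that changed in CPT2H-KO can be set beside the second comparison, which uses other hearts. Of the 30 that fell in CPT2H-KO, 21 (70.0%) were above 0 in double against single KO, where 59.1% of all 2077 genes that fell and were tested in both were above 0. Of the 7 that rose, 6 were below 0 (85.7%), as were 59.4% of the 2159 genes that rose; Mrps6 was the exception. Both counts depend on 1 library. Without double KO replicate 1, 12 of the 30 (40.0%) were above 0, against 63.3% of all genes that fell. Without double KO replicate 3, 3 of the 7 (42.9%) were below 0, against 62.1% of all genes that rose. The single values in the second comparison did not pass the test, so these are counts of signs and not of changes.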

How the data were processed

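RNA was measured by sequencing in 16 mouse hearts; groups and replicate numbers come from the sample titles. Per the labels' protocols, libraries were stranded total RNA libraries made after ribosomal RNA removal. Per the submitters' processing notes, bcl2fastq, HISAT2, DESeq2 1.42.0 and the build mm10 were used for all samples. No source used here states how reads were assigned to genes (program, gene models, use of strand). The authors deposited raw read counts per gene, whole numbers without normalization, in 2 tables with different gene sets. The second has 1 row with no gene name, which was not used.

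The mitoribosomal genes and all gene lists were chosen with earlier results of these data known. Counts were tested within each table with edgeR 4.0.16 in R 4.3.3 (filterByExpr, TMM, quasi-likelihood F test, Benjamini-Hochberg adjustment over all tested genes, threshold 0.05). SE is the size of the log2 fold change over the root of the F statistic. CPM uses TMM-scaled library sizes, and means over genes use log2(CPM + 0.5). Positions and exon overlaps come from GENCODE M21. Litters are not named in the labels, and p-values therefore rest on the spread among the hearts sampled. Named genes were, in CPT2H-KO, the 6 lowest and up to 4 highest called members of each subunit; in the double KO, the 3 smallest p of each; the 2 highest and 2 lowest levels per kilobase; a fixed set of 8 members; and up to 3 smallest p of each other list. Alternatives were DESeq2 1.42.0, limma-voom (limma 3.58.1), other scalings and filters, covariates, a replicate block and leaving out each library. In a simulation of the CPT2H-KO comparison, 200 of 14123 genes were changed. Of those changed by 0.5 on the log2 scale 22.4% were recovered, and of those changed by 1, 83.6%. In the data 33.7% of genes were called, so the adjusted threshold was less strict there. Members also had a lower median SE (0.0822) than all tested genes (0.126). The simulated shares therefore do not give the recovery among members. No libraries agreed within sampling noise (lowest chi-square per degree of freedom 10.7).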

Additional observations from a re-analysis of the deposited data

Results flagged for a closer look

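Of 68 groups of 5 hearts examined, 4 held a library whose gap to the nearest other heart exceeded Dixon's critical value of 0.71 of the group's range; chance gives about 1 in 20 groups. The summed large subunit level was 717 CPM in CPT2H-KO replicate 1 and 859 to 902 in the other knockout hearts. In the same heart Mrpl36 was at 4.82 CPM, with 7.94 to 8.24 in the others, and Mrpl44 at 12.5 CPM, with 15.3 to 15.9 in the others. Mrps30 was at 17.4 CPM in CPT2H-KO replicate 5 and 13.3 to 14.4 in the others.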

How the results depend on the processing

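In CPT2H-KO against wild type, 10 of the 30 falls (Mrps21, Mrpl42, Mrpl48, Mrpl23, Mrps35, Mrps25, Mrps22, Mrpl36, Mrpl49 and Mrps14) and 0 of the 7 rises kept their call in all 19 alternatives; 20 and 5 kept it in each fit without 1 library. With library totals only, 49 members fell (31 large), 64.5% against 34.2% of all genes. In that fit 0 rose (0 large, 0 small), against 5.86% of all genes. The large and small medians were -0.418 and -0.446, and Mrpl35 turned to -0.07. TMM scales out the shift of -0.27 of all genes. With the atrial covariate, 10 members fell (5 large, 5 small), 13.2% against 10.6% of all genes. In that fit 5 rose, of which 1 was large, 6.58% against 11.5% of all genes. The cause was not tested. The replicate numbers did not pair the hearts (correlations of deviations -0.0868 to 0.23 in the first table and -0.205 to 0.167 in the second). With replicate number as a block, 11 large members fell and 1 rose. Without 1 library each, 10 to 19 large members fell, 1 to 2 rose, and the large minus small median was -0.009 to 0.073. In the double KO, the atrial covariate gave medians of 0.187 (large) and 0.283 (small), a difference of -0.096. That covariate differed mainly among the double KO hearts and cannot be told apart from the group. Usp30 was at -1.18 by DESeq2 and -1.26 to -1.03 without 1 library each; it passed without double KO replicate 1 (-1.23, edgeR adjusted p = 0.0218). A fit to nuclear genes only was not run for the second table, where no mitochondrially encoded genes were analysed.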
